A study of Mus musculus with 16 samples.

Results

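CD103 single-positive regulatory T cells (Treg) were compared before and after a CD4 T cell suppression assay, with 4 of the 16 arrays of the series: 2 from freshly sorted cells and 2 from activated cells. They were chosen by their titles, which give CD103-positive, ICOS-negative cells with or without activation. All groups came from wild type female C57BL/6 mice of 8 to 12 weeks, from pooled lymph nodes, and each group has biological replicates 1 and 2 from 2 independent experiments. For activation, 200000 Treg were cultured for 3 days with 1000000 naive CD4 cells of the Ly5.1 congenic type, 2000000 irradiated Rag2-/- splenocytes and 0.5 ug/ml soluble anti-CD3, and were recovered by a second sort for CD4, for CD25 and against Ly5.1. Fresh and activated cells thus differ in stimulation, culture, time and re-sorting together, and these cannot be told apart. For comparison, double-negative Treg (neither CD103 nor ICOS) and double-positive Treg (both) were each measured on 2 fresh and 2 activated arrays in the same way.

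Treg restrain other T cells and are defined by the transcription factor Foxp3 and high CD25. CD103 is the alpha E chain of an integrin that binds E-cadherin on epithelial cells, and its surface presence marks Treg that have met antigen or tissue signals. In a suppression assay the Treg are themselves driven through the T cell receptor, so that resting cells enter the cell cycle, grow, change their metabolism and switch on effector genes while dropping genes of the quiescent state.

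The values are log2 intensities from expression arrays. Each of 19938 genes was represented by 1 probe set, and the medians of the 4 arrays lay between 6.26 and 6.48. Intensity includes background, so a fold against a level near or below those medians can understate the difference. A gene is said to have risen or fallen where its Benjamini-Hochberg adjusted p over the 19938 genes was below 0.05 in limma, which pools the spread of replicates over 8 groups. The 2 replicates of a group differed by more than 2-fold for 148 genes in the fresh and 202 genes in the activated CD103 single-positive cells, against 24 to 685 genes over the 8 groups. The most divergent pair was that of activated ICOS single-positive cells, which enters the pooled spread. In bulk samples, fewer cells of a type and less RNA per cell cannot be told apart.

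The genes behind the sort were read first. Itgae, which encodes CD103, measured 11.77 and 11.89 on the fresh arrays and 9.94 and 9.87 on the activated arrays. The activated arrays lay below the fresh ones, but the difference of -1.93 (SE 0.82) did not pass (adjusted p = 0.142), because the pooled spread of this gene was wide. Icos, the costimulatory receptor that the first sort excluded from the surface, measured 11.21 and 11.47 fresh and 12.12 and 12.07 activated (difference 0.75, SE 0.37, adjusted p = 0.212). The stated gates of the second sort name neither CD103 nor ICOS. For the activated cells these 2 markers therefore give the phenotype before culture, and surface ICOS after it is not known. Foxp3 measured 12.62 and 12.43 fresh and 12.19 and 11.97 activated (difference -0.45, SE 0.91, adjusted p = 0.841). Foxp3 therefore stayed among the bright genes on all 4 arrays. Il2ra, which encodes CD25 and was a gate of the second sort, measured 12.67 and 12.65 fresh and 13.11 and 13.08 activated (adjusted p = 0.322). Cd4 measured 11.90 and 11.68 fresh and 11.65 and 11.43 activated (adjusted p = 0.523).

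Activation changed the level of 4036 genes, 20.2% of those tested, of which 2041 (10.2%) rose and 1995 (10%) fell. The median difference of all genes was -0.004 on the log2 scale, and 5841 genes had an unadjusted p below 0.05. The 2 groups did not overlap for 9939 genes, 49.8% of all. With 2 arrays in each group, unchanged genes also separate often by order alone, so this is not a count of changed genes. A difference of at least 2-fold beside the adjusted p was met by 1041 rises and 848 falls, and 467 genes passed a test against a 2-fold difference. Leaving out 1 of the 4 arrays in turn gave between 2832 and 3012 genes. When each array was centred on its median, 42.5% of the calls were rises, compared with 50.6% in the deposited scaling.

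**Figure D1:**
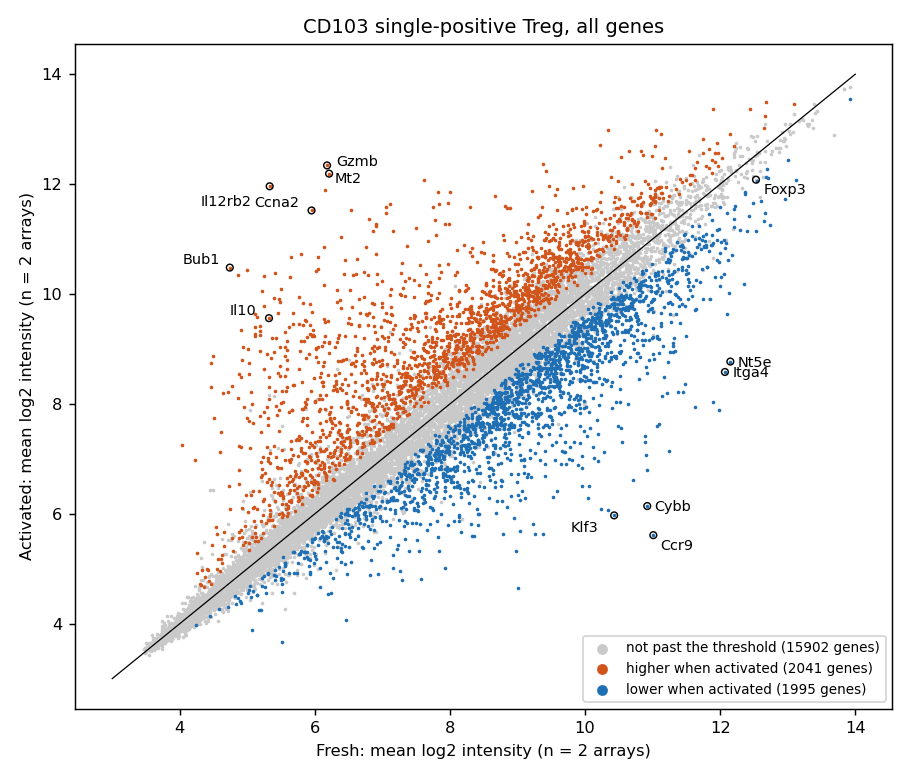
Mean log2 intensity of each of 19938 genes on the 2 fresh arrays (horizontal axis) against the 2 activated arrays (vertical axis) of CD103 single-positive Treg, with the line of equal levels. Orange points are the 2041 genes that rose, blue points the 1995 that fell and grey points those that did not pass. Il12rb2, Gzmb and Mt2 stand near 12 when activated from about 5 to 6 when fresh, whereas Ccr9, Klf3 and Cybb end near 6 from above 10.

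The largest rise was that of Il12rb2, the inducible chain of the interleukin-12 receptor. It measured 5.41 and 5.25 on the fresh and 11.77 and 12.16 on the activated arrays, which is 98.9-fold higher (log2 difference 6.63, SE 0.50, adjusted p = 6.15e-06). The metallothionein gene Mt2, whose product binds zinc and copper, went from 6.42 and 5.94 to 12.35 and 12.33 (71.4-fold, adjusted p = 0.000726). Gzmb, which encodes the cytolytic serine protease granzyme B, went from 6.22 and 6.20 to 11.84 and 12.54 (63.2-fold, SE 1.06 on the log2 scale, adjusted p = 0.00203). All 3 genes were below the array medians or close to them in fresh cells and among the bright genes afterwards. Gzma rose from 5.31 and 5.16 to 10.06 and 10.60 (34.1-fold, adjusted p = 0.00387). The cytokine gene Il24 rose from 5.10 and 4.91 to 10.93 and 9.93 (42.9-fold, adjusted p = 8e-05). Cyp11a1, which encodes the side-chain cleavage enzyme that starts steroid synthesis from cholesterol, rose from 4.99 and 4.72 to 9.78 and 10.90 (44.7-fold, adjusted p = 2.96e-05). The activated replicates of Cyp11a1 and Il24 differed by about 1 log2 unit, far less than either differed from the fresh arrays. The inhibitory receptor genes Lilr4b and Lilrb4a rose 53.8-fold and 31.6-fold. They are near-identical copies, so their probe sets may share signal and their separate values are uncertain. The other rises among the 15 largest were Bub1, Ccna2, Kif11 and Cdk1 of the cell cycle, the adenylate kinase gene Ak4 (30.4-fold), the stress kinase gene Map3k20 (28.6-fold) and Gatm, which encodes an enzyme of creatine synthesis (25.4-fold).

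The largest fall was that of Ccr9, the receptor for the gut chemokine CCL25. It measured 11.09 and 10.93 on the fresh and 5.85 and 5.37 on the activated arrays, which is 42.1-fold lower (log2 difference -5.40, SE 0.44, adjusted p = 1.03e-05). Cybb, which encodes the catalytic chain of the phagocyte NADPH oxidase, went from 10.84 and 11.00 to 6.19 and 6.09 (27.5-fold lower, adjusted p = 3.14e-07). The repressor gene Klf3 went from 10.40 and 10.45 to 6.34 and 5.59 (22-fold lower, adjusted p = 4.5e-05). These 3 genes were well above the array medians in fresh cells and below or near them after activation. Ifi208, Ifi203 and Ifi209, of the interferon-inducible Ifi200 family, fell 20.5-fold, 17.1-fold and 14.2-fold. Members of that family are near-identical in part, so signal may be shared between them. Ifi209 fell by 3.83 on the log2 scale with all arrays, by 4.50 without activated replicate 2 and by 3.15 without activated replicate 1. H2-Ob, part of a non-classical class II complex, went from 10.06 and 10.03 to 6.65 and 5.90 (13.6-fold lower, adjusted p = 0.000349). Among the remaining 8 of the 15 largest falls, which lay between 12.8-fold and 19.5-fold, were the sialyltransferase gene St8sia6, the sodium-proton exchanger gene Slc9a9, Ipcef1, Ms4a4b, the nucleoside transporter gene Slc28a2b, Smpdl3a, the lubricin gene Prg4 and the epoxide hydrolase gene Ephx1.

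**Figure D2:**
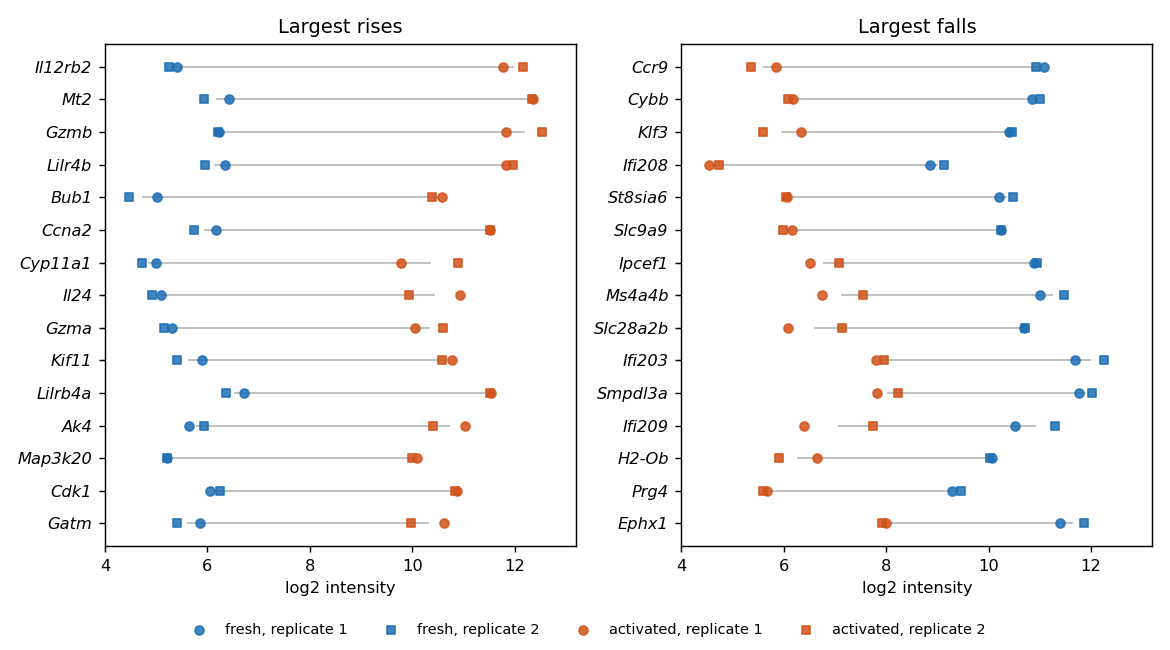
Log2 intensity (horizontal axes) on each of the 4 CD103 single-positive arrays for the 15 largest rises and the 15 largest falls that passed. Circles are replicate 1 and squares replicate 2, blue is fresh and orange activated, and grey lines join the group means; the activated and fresh points of every gene shown are separate.

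Every measured gene of the mitosis list rose, beside 10.2% of all genes. All 24 passed, with differences between 2.20 and 5.74 and a median of 3.97, and the call held for all 24 without any 1 of the 4 arrays. Bub1, a kinase of the spindle checkpoint, measured 5.02 and 4.47 fresh and 10.58 and 10.39 activated (53.6-fold, adjusted p = 2.51e-07). Ccna2, which encodes cyclin A2, measured 6.17 and 5.74 fresh and 11.51 and 11.52 activated (47.3-fold, adjusted p = 2.28e-08). In fresh cells Bub1 lay well below the array medians and Ccna2 a little below them. Kif11, the motor that separates the spindle poles, went from 5.89 and 5.40 to 10.78 and 10.58 (32.7-fold). Cdk1, the kinase of mitotic entry, went from 6.05 and 6.24 to 10.87 and 10.84 (26.2-fold, adjusted p = 9.37e-09). Top2a, the topoisomerase that untangles sister chromatids, went from 6.24 and 6.54 to 10.92 and 11.14 (24.9-fold), and the proliferation marker Mki67 from 7.29 and 6.81 to 11.57 and 11.61 (23.3-fold). For each of these 6 genes the activated replicates lay far closer to each other than to either fresh array.

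The promoters of 4 mitosis genes and of 1 hypoxia gene are shown because these genes moved together with the rest of their lists. The sequences are from RefSeq GRCm38.p6 and run, on the gene's own strand, from 250 bases before to 50 bases after the start. Capitals in the 4 mitosis promoters mark the CCAAT box (CCAAT, or ATTGG on the other strand) and the cell cycle homology region core (TTTGAA, or TTCAAA on the other strand). The Bub1 window spans chr2:127831810-127832109 on the minus strand, that of Kif11 chr19:37376132-37376431 on the plus strand, that of Cdk1 chr10:69352863-69353162 on the minus strand and that of Top2a chr11:99024140-99024439 on the minus strand.
Bub1: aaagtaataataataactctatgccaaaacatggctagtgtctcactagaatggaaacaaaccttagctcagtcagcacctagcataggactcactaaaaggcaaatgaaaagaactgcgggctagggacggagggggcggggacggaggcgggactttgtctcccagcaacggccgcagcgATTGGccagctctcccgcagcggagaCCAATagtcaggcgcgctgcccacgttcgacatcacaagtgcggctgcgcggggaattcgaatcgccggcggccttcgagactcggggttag
Kif11: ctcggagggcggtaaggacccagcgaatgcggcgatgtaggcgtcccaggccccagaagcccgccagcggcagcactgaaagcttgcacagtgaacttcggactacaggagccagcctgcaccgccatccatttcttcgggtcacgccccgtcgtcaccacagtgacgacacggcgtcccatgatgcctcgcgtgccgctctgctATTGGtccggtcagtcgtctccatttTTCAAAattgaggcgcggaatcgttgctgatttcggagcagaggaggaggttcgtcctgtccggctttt
Cdk1: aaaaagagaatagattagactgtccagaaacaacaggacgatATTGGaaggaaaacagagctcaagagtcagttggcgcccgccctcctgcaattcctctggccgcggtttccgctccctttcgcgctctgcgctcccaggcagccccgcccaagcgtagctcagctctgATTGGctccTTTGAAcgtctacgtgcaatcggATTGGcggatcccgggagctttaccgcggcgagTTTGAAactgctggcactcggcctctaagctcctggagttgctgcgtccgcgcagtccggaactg
Top2a: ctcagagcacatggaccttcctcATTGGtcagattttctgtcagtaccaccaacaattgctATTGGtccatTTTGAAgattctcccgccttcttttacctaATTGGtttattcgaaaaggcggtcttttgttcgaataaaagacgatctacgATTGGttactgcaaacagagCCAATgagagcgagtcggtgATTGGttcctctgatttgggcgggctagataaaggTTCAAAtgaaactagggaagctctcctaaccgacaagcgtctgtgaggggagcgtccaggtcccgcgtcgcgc
Of the 24 measured mitosis genes 19 have a promoter in that table. A CCAAT box on either strand was found in 14 of them (73.7%), against 37.9% of 27025 promoters of the same length. TTTGAA on either strand was found in 14 (73.7%), against 18.1% of all. The Top2a window holds 6 CCAAT boxes and 2 TTTGAA, that of Cdk1 holds 3 and 2, that of Kif11 1 of each, and that of Bub1 2 CCAAT boxes. These are matches of letters, not shown binding sites, and the motifs were chosen with the changes known.

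All 25 measured genes of DNA replication and nucleotide supply rose, by 1.06 to 4.57 on the log2 scale with a median of 2.26. Of all genes 10.2% rose. Rrm2, the small subunit of the enzyme that makes deoxynucleotides, measured 6.81 and 6.80 fresh and 11.34 and 11.41 activated (23.8-fold, adjusted p = 3.43e-07). Its partner Rrm1 rose 6.60-fold from a higher level of 8.71 and 8.99. Uhrf1, which carries DNA methylation through replication, rose 13.4-fold, Mcm10 10.1-fold, the polymerase gene Pole 8.59-fold and the primase gene Prim1 7.43-fold. The replication list therefore moved in the same direction as the mitosis list, with a smaller median. Of 19 genes of cell cycle entry and inhibition 11 rose and 2 fell, with a median of 1.07. Of that list 68.4% passed, beside 20.2% of all genes. E2f8, a repressor of the late cell cycle, rose 24.1-fold, from 5.65 and 5.36 to 10.09 and 10.10, and Ccne2, which encodes cyclin E2, rose 17.7-fold. E2f1 rose 6.58-fold, Ccne1 6.20-fold, E2f7 5.25-fold and the kinase inhibitor gene Cdkn2c 3.56-fold.

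Glycolysis and hypoxia genes rose in 15 of 19 cases and none fell (median 1.96). Of this list 78.9% passed, beside 20.2% of all genes. Bnip3, a mitophagy receptor induced by low oxygen, measured 7.62 and 7.60 fresh and 12.32 and 11.84 activated (22.2-fold, adjusted p = 4.3e-05). Egln3, an oxygen-sensing prolyl hydroxylase, went from 8.08 and 7.93 to 12.19 and 11.51 (14.4-fold). Hk2, the inducible hexokinase that traps glucose, went from 6.56 and 6.58 to 10.23 and 10.45 (13.6-fold, adjusted p = 1.71e-07). Slc16a3, the lactate exporter, rose 12.9-fold, and the triosephosphate isomerase gene Tpi1 7.89-fold. Genes of the entry, the middle and the exit of glycolysis were thus higher on both activated arrays. Aldoc rose 7.18-fold with all arrays, but did not pass without fresh replicate 1, fresh replicate 2 or activated replicate 1 (adjusted p = 0.0509, 0.0725 and 0.106).

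The Bnip3 promoter at chr7:138909457-138909756, minus strand, is shown with capitals on the core of the hypoxia response element, ACGTG or GCGTG, on either strand.
Bnip3: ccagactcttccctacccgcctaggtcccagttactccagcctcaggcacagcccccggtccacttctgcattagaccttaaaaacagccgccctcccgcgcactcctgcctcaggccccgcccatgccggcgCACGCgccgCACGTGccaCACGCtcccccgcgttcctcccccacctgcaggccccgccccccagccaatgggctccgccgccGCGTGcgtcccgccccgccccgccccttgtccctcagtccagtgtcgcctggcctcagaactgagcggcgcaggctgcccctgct
The window holds 5 such cores when the palindrome CACGTG is counted once on each strand. Of the 18 glycolysis and hypoxia genes with a promoter entry 14 hold a core (77.8%), as do 12 of the 15 that rose (80%), against 43.8% of all promoters. The genes that rose thus held a core about as often as the whole list. These too are matches of letters, the motif was chosen with the list known, and promoters were not matched for base content.

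Cholesterol and fatty acid synthesis rose in 20 of 25 genes, while 2 fell (median 1.35). Of this list 88% passed, beside 20.2% of all genes. Scd1, which desaturates fatty acids, measured 7.64 and 5.86 on the fresh arrays and 11.18 and 10.53 on the activated arrays (17.2-fold, adjusted p = 0.00126). Its fresh replicates were far apart, and the log2 difference was 5.0 without fresh replicate 1 and 3.22 without fresh replicate 2, compared with 4.11 with all arrays. Idi1 rose 11.6-fold, from 6.28 and 6.36 to 9.84 and 9.87 (adjusted p = 1.73e-06), Sqle 6.18-fold, Lss 4.71-fold and Fdps 4.70-fold; these encode enzymes of the path from isopentenyl diphosphate to lanosterol. The motif TCACNCCAC, searched on both strands, was in 1 of 18 promoters of the list (5.56%), in 1 of the 14 of genes that rose (7.14%) and in 1.22% of all promoters. Abcg1, which exports cholesterol, moved the other way, from 11.21 and 11.24 to 8.92 and 8.61 (5.50-fold lower, adjusted p = 5.29e-05). The list thus held rises of synthesis genes beside a fall of an export gene.

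Genes for amino acid supply and protein synthesis rose with smaller steps. Of 26 aminoacyl-tRNA synthetase, serine and one-carbon genes 19 rose and none fell (median 0.91). Of this list 73.1% passed, and 58.3% of the transporter list described below, beside 20.2% of all genes. Asns, which makes asparagine, measured 6.85 and 6.98 fresh and 10.44 and 10.29 activated (10.9-fold, adjusted p = 1.7e-05), and Psat1, of serine synthesis, rose 5.16-fold. Phgdh, the first enzyme of that pathway, rose 2.78-fold, the formate-producing enzyme gene Mthfd1l 2.88-fold and the glycyl-tRNA synthetase gene Gars 2.53-fold. Of 12 transporters 7 rose and none fell (median 0.65), and 4 passed without fresh replicate 1. The transferrin receptor gene Tfrc rose 5.48-fold, from 8.18 and 8.79 to 10.88 and 11.00. The lactate carrier gene Slc16a1 rose 3.29-fold, Slc7a5, of the large amino acid carrier, 3.00-fold, and Slc43a3 2.83-fold.

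Proteasome genes rose in 18 of 24 cases, by at most 1.15 on the log2 scale (median 0.78), and all 24 had a difference above 0; 12 passed without fresh replicate 1, 15 without activated replicate 1 and 12 without activated replicate 2. Psmd1, a scaffold subunit of the regulatory particle, went from 9.59 and 9.97 to 10.93 and 10.93 (2.21-fold, adjusted p = 0.000879). Ribosome biogenesis genes rose in 10 of 21 cases (median 0.73), but 2 passed without fresh replicate 1, 4 without activated replicate 1 and 5 without activated replicate 2. Nolc1, a nucleolar chaperone, rose 2.0-fold and passed in each of these fits. Respiratory chain genes rose in 12 of 25 cases (median 0.59), with 7 without fresh replicate 1 and 6 without activated replicate 2. Among them Cycs, which encodes cytochrome c, measured 11.19 and 11.20 fresh and 12.44 and 12.49 activated (2.41-fold, adjusted p = 0.000125), and Uqcrfs1 rose 2.22-fold. Heat shock and chaperonin genes rose in 7 of 19 cases (median 0.73), with 3 without fresh replicate 1 and 3 without activated replicate 1. The chaperonin genes Tcp1 and Cct6a rose 2.74-fold and 2.37-fold and held in each such fit. The counts of all 4 lists moved when single arrays were left out. With all arrays 75% of the proteasome, 47.6% of the ribosome biogenesis, 48% of the respiratory chain and 36.8% of the heat shock list passed. Of all genes 20.2% did.

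**Figure D3:**
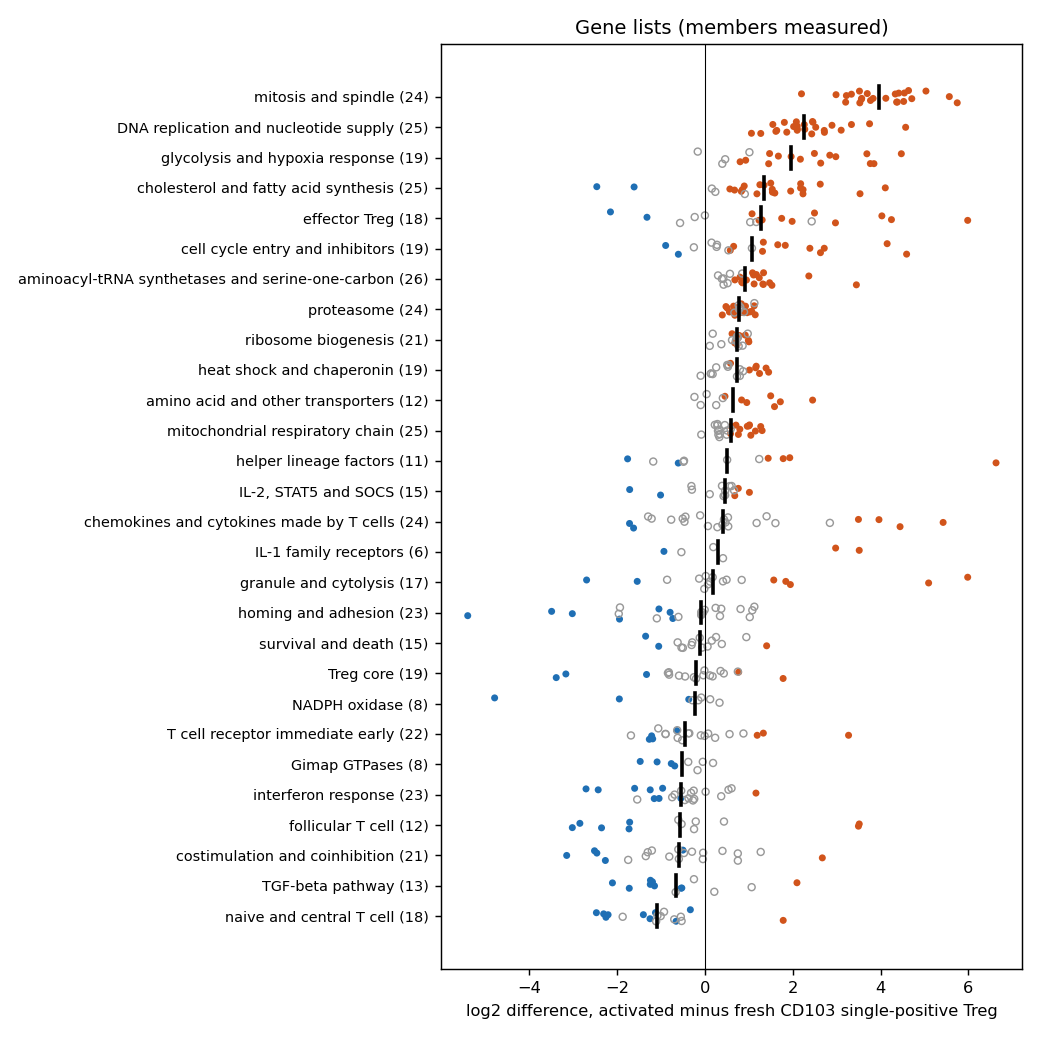
Log2 difference, activated minus fresh CD103 single-positive Treg (horizontal axis), of the measured members of 28 gene lists. Each circle is a gene, orange for genes that rose, blue for genes that fell and open grey for those that did not pass; the black bar is the list median, which is highest for mitosis (3.97) and lowest for naive and central T cell genes (-1.09).

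Effector Treg genes rose in 10 of 18 cases and fell in 2 (median 1.27). Tnfrsf8, which encodes the TNF receptor family member CD30, measured 8.00 and 7.64 fresh and 11.93 and 11.77 activated (16.3-fold, adjusted p = 0.00421). Nfil3, a transcription factor gene, went from 7.31 and 7.81 to 10.49 and 10.57 (7.85-fold) and Ccr8, a chemokine receptor of tissue Treg, from 9.51 and 9.42 to 11.92 and 12.00 (5.64-fold). These genes were already at or above the array medians in fresh cells. Of the effector Treg list 66.7% passed, beside 20.2% of all genes. Il10, the suppressive cytokine, measured 5.68 and 4.95 fresh and 9.47 and 9.65 activated (19-fold, SE 1.20 on the log2 scale, adjusted p = 0.0281). Its call rested on all 4 arrays, with adjusted p between 0.0779 and 0.129 without 1 of them. Fgl2, which encodes a secreted suppressive protein, fell 4.43-fold, and this was lost without fresh replicate 2 (adjusted p = 0.0646) or activated replicate 1 (0.0774). Without fresh replicate 2, 7 members of the list passed and none of them fell.

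Of 19 Treg core genes 2 rose and 3 fell (median -0.20), or 26.3% beside 20.2% of all genes. Tnfrsf9, which encodes the costimulatory receptor 4-1BB, rose 3.44-fold from 11.12 and 11.14 to 12.99 and 12.84 (adjusted p = 0.00233). Nt5e, which encodes the adenosine-producing ectoenzyme CD73, went from 11.98 and 12.33 to 9.10 and 8.45 (10.4-fold lower, adjusted p = 0.000449). Nrp1, the semaphorin receptor of thymic Treg, went from 11.18 and 11.58 to 8.35 and 8.08 (8.95-fold lower, adjusted p = 0.00249). Tnfrsf4, which encodes OX40, rose 1.71-fold, but with 1 array fewer its adjusted p lay between 0.0698 and 0.0794. Without fresh replicate 1 or activated replicate 2, 3 core genes passed. Without activated ICOS single-positive replicate 2, whose departure from its partner widens the pooled spread, 4 rose and 4 fell, and with the 4 CD103 single-positive arrays alone 3 rose and 6 fell.

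Among 24 chemokine and cytokine genes 4 rose and 2 fell (median 0.42), or 25.0% beside 20.2% of all genes, and 3 passed without fresh replicate 2. Il24 was the largest rise. Il5, a type 2 cytokine, measured 5.18 and 5.11 fresh and 9.80 and 9.37 activated (21.7-fold, adjusted p = 0.0109). It did not pass without fresh replicate 1, fresh replicate 2 or activated replicate 1 (adjusted p = 0.0528, 0.0541 and 0.066). Il21 went from 4.72 on both fresh arrays to 7.88 and 8.55 (11.3-fold, adjusted p = 0.0123), and was lost without fresh replicate 1, fresh replicate 2 or activated replicate 2 (0.0597, 0.0577 and 0.0832). Ccl3, an inflammatory chemokine, went from 6.09 and 5.28 to 8.10 and 11.19 (15.6-fold, adjusted p = 0.0145). Its activated replicates were far apart, and it was lost without fresh replicate 2 (0.0893) or activated replicate 2 (0.13); the log2 difference was 2.42 without activated replicate 2 and 5.51 without activated replicate 1. Il9, named after its values were seen, showed the same kind of split, with 5.45 and 5.18 fresh and 10.03 and 6.29 activated, and did not pass (adjusted p = 0.286). Ccl5 and Ltb fell 3.28-fold and 3.08-fold and held without any 1 of the 4 arrays. With only the 4 CD103 single-positive arrays in the fit, 6 members rose and 5 fell.

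Beside Gzmb and Gzma, 3 of 17 granule and cytolysis genes rose and 2 fell. With those genes 41.2% of the list passed, beside 20.2% of all genes. Lgals1, which encodes the glycan-binding protein galectin-1, went from 11.22 and 10.88 to 12.88 and 13.10 (3.86-fold, adjusted p = 5.74e-06). The granzyme B inhibitor gene Serpinb9 rose 3.59-fold and Serpinb6b 2.97-fold. Perforin, Prf1, measured 7.24 and 7.14 fresh and 6.91 and 8.47 activated and did not pass (adjusted p = 0.78). Granzyme and inhibitor genes rose, therefore, while the pore-forming partner showed no change past its spread. The lymphocyte protease gene Ctsw went from 11.10 and 11.24 to 8.08 and 8.89 (6.45-fold lower), which did not pass without activated replicate 1 (adjusted p = 0.062).

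Of 11 helper lineage genes 4 rose and 2 fell (median 0.51), and 3 passed without fresh replicate 2. Il12rb1, the constant chain of the interleukin-12 receptor, rose 3.44-fold from 9.53 and 8.86 to 10.85 and 11.11 (adjusted p = 0.00445). Both chains of that receptor were thus higher after activation. Of the helper lineage list 54.5% passed, and 50% of the IL-1 family receptor list described next, beside 20.2% of all genes. Tbx21, the type 1 factor T-bet, went from 7.77 and 7.52 to 8.81 and 10.34 (3.82-fold, adjusted p = 0.0359). It was lost without fresh replicate 1, fresh replicate 2 or activated replicate 2 (adjusted p = 0.101, 0.143 and 0.276), and its log2 difference was 1.17 without activated replicate 2 and 2.70 without activated replicate 1. Of 6 IL-1 family receptor genes, Il1r2 and Il1rn rose and Il1rap fell, and 1 passed without fresh replicate 2 or without activated replicate 1. Il1rn, the receptor antagonist, went from 6.52 and 6.46 to 9.94 and 8.99 (7.87-fold, adjusted p = 0.00161). Il1r2, the decoy receptor, went from 7.41 and 7.31 to 10.79 and 10.96 (11.4-fold, adjusted p = 0.0241), and its adjusted p was between 0.0891 and 0.105 without 1 of the 4 arrays. Il1rap, the shared signalling chain, fell 1.90-fold and was lost without fresh replicate 2 (0.0525) or activated replicate 1 (0.0533).

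Genes of naive and central T cells fell in 9 of 18 cases, while 1 rose (median -1.09), and 6 passed without activated replicate 2. Id3, an inhibitor of E proteins, measured 9.01 and 9.27 fresh and 6.53 and 6.81 activated (5.53-fold lower, adjusted p = 0.000954). The antiproliferative gene Btg2 fell 4.93-fold, from 11.34 and 11.15 to 8.66 and 9.23, and the quiescence factor gene Foxp1 4.76-fold, from 11.44 and 11.17 to 9.25 and 8.86. Satb1, a chromatin organiser of T cells, was the member that rose, from 10.65 and 11.00 to 12.53 and 12.70 (3.44-fold, adjusted p = 0.000371). Of the naive and central list 55.6% passed, beside 20.2% of all genes. Klf2, which maintains the lymph node exit receptor, went from 9.80 and 9.46 to 7.79 and 7.07 (4.60-fold lower). It did not pass without fresh replicate 1 (adjusted p = 0.0742) or activated replicate 2 (0.0943).

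Homing and adhesion genes fell in 7 of 23 cases and none rose (median -0.08), and 4 passed without activated replicate 1. The median was -0.71 without activated replicate 2. Of the list 30.4% passed, beside 20.2% of all genes, and 16 of the 23 did not pass. Next to Ccr9, Itga4, the integrin chain of gut and inflamed vessel homing, went from 11.98 and 12.15 to 8.59 and 8.57 (11.2-fold lower, adjusted p = 3.44e-06). Cxcr5, the follicle homing receptor, went from 9.01 and 8.88 to 5.83 and 6.03 (8.08-fold lower, adjusted p = 1.55e-05), and Itgal, a chain of LFA-1, fell 2.06-fold. Ccr9, Itga4 and Cxcr5, named from this list, were thus lower, while most members did not pass. Cxcr3 went from 9.86 and 9.80 to 7.11 and 8.67 (3.84-fold lower), with a difference of -2.72 without activated replicate 2 and -1.16 without activated replicate 1. It was lost without fresh replicate 1, fresh replicate 2 or activated replicate 1 (adjusted p = 0.0589, 0.0514 and 0.0939). Without activated ICOS single-positive replicate 2, 4 members rose and 9 fell, and with only the 4 CD103 single-positive arrays 3 rose and 9 fell.

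Follicular T cell genes fell in 5 of 12 cases and rose in 2, which were Il21 and Il1r2 (median -0.57); without fresh replicate 1 or without fresh replicate 2, 4 passed and none of them rose. Sh2d1a, which encodes the adaptor SAP, fell 7.18-fold, from 9.38 and 10.24 to 6.79 and 7.14. The exhaustion and follicular factor gene Tox fell 5.10-fold and the interleukin-6 receptor gene Il6ra 3.31-fold. Of the follicular list 58.3% passed, beside 20.2% of all genes. Costimulation and coinhibition genes fell in 5 of 21 cases and rose in 1 (median -0.59), and 3 passed without fresh replicate 1. Cd101, an inhibitory surface protein, went from 10.23 and 10.32 to 7.31 and 6.96 (8.83-fold lower, adjusted p = 4.19e-07). Cd226 and Cd96, which compete for ligands of the nectin family, fell 5.70-fold and 5.49-fold. Of the costimulation and coinhibition list 28.6% passed, beside 20.2% of all genes. Havcr2, which encodes TIM-3, went from 5.98 and 5.37 to 7.95 and 8.75 (6.38-fold), and its adjusted p rose from 0.0382 to between 0.0779 and 0.193 without 1 array. Without activated ICOS single-positive replicate 2, 3 of these genes rose and 9 fell, and with only the 4 CD103 single-positive arrays 3 rose and 8 fell.

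Of 22 immediate early genes of the T cell receptor 3 rose and 4 fell (median -0.44), and 3 passed without fresh replicate 2 and 4 without any other 1 of the 4 arrays. Of this list 31.8% passed, and 33.3% of the IL-2, STAT5 and SOCS list described next, beside 20.2% of all genes. The median of the immediate early genes was 0.04 without fresh replicate 1. Fosl2, an AP-1 subunit, went from 7.44 and 7.15 to 10.55 and 10.58 (9.65-fold, adjusted p = 0.000106). Nfatc1, a calcium-driven factor, went from 10.96 and 10.61 to 9.45 and 9.60 (2.40-fold lower, adjusted p = 0.000285). Both held without any 1 array. Egr2 fell 2.28-fold and was lost without fresh replicate 1 (adjusted p = 0.0621) or activated replicate 1 (0.0766). Nr4a2 rose 2.52-fold and was lost without fresh replicate 2 (0.0787) or activated replicate 2 (0.083). Among 15 IL-2, STAT5 and SOCS genes 3 rose and 2 fell (median 0.46), with 3 without fresh replicate 1 and 1 without either fresh replicate 2 or activated replicate 1. Jak1, the kinase shared by these receptors, fell 2.01-fold (adjusted p = 0.000541) and kept its call each time.

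TGF-beta pathway genes fell in 8 of 13 cases and rose in 1 (median -0.66). The receptor genes Tgfbr1 and Tgfbr2 went from 11.00 and 11.33 to 9.24 and 8.89 (4.29-fold lower, adjusted p = 0.00226) and from 10.90 and 10.89 to 9.36 and 8.99 (3.29-fold lower, adjusted p = 2.04e-05). The inhibitory Smad7, Ski and Tgif1 fell 2.36-fold, 2.36-fold and 2.28-fold. Receptors and inhibitors of the pathway thus fell together. Of the TGF-beta list 69.2% passed, beside 20.2% of all genes. Furin, which cleaves the TGF-beta precursor, rose 4.28-fold, and was lost without fresh replicate 2 (adjusted p = 0.0539) or activated replicate 2 (0.0518).

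Interferon response genes fell in 8 of 23 cases and rose in 1 (median -0.54), with 5 passing without fresh replicate 2 or without activated replicate 1. Ifit3, which binds foreign RNA, went from 8.13 and 8.70 to 5.78 and 6.19 (5.37-fold lower, adjusted p = 0.000467). Ifit1 fell 6.51-fold, from 8.60 and 9.07 to 5.43 and 6.84, with a log2 difference of -3.40 without activated replicate 2 and -2.0 without activated replicate 1. Oasl2 fell 2.22-fold. The Gimap GTPases, lymphocyte survival proteins, fell in 4 of 8 cases (median -0.53), with 2 without fresh replicate 2 or without activated replicate 1, and Gimap3 and Gimap8 fell 2.77-fold and 2.12-fold in all such fits. Passing members made up 39.1% of the interferon response list and 50% of the Gimap list, beside 20.2% of all genes. Of 15 survival and death genes Bak1 rose 2.65-fold while Mcl1 fell 2.07-fold and Fas 2.54-fold (median -0.12), which is 20% of the list beside 20.2% of all genes. The call of Fas was lost without any 1 of the 4 arrays (adjusted p between 0.0787 and 0.203).

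In the NADPH oxidase list 3 of 8 genes fell (median -0.22), or 37.5% beside 20.2% of all genes. Beside Cybb, the activator subunit gene Noxa1 went from 7.70 and 7.93 to 5.98 and 5.76 (3.85-fold lower, adjusted p = 1.11e-06). The partner chain gene Cyba measured 11.99 and 11.58 fresh and 12.29 and 11.96 activated, and did not pass (adjusted p = 0.53). Ncf1, Ncf4 and Rac2 did not pass either, with differences of -0.15, -0.08 and -0.28. The catalytic chain was thus lower while its partner stayed bright. Nox1 fell by 0.36 on the log2 scale (adjusted p = 0.0427) and was lost without any 1 array (0.0583 to 0.231).

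Markers of other cell types were read beside these results. The summed level of 9 T cell identity genes was 15.02 and 14.96 on the fresh arrays and 14.53 and 14.57 on the activated ones, and Cd3e, Cd3g and Lat fell 1.86-fold, 2.60-fold and 1.53-fold, Cd3e without a call when fresh replicate 1 or activated replicate 2 was left out (adjusted p = 0.0505 and 0.063). The summed level of 23 myeloid and dendritic genes was 12.04 and 11.53 fresh and 11.66 and 11.68 activated, and 16 of them lay below the array median in fresh and 20 in activated cells. Of these genes 1 fell, Lyz1, whose adjusted p of 0.0428 became 0.145, 0.14 and 0.344 without activated replicate 1, activated replicate 2 and fresh replicate 1; without fresh replicate 2, 7 fell. Fresh replicate 1 was the higher of the pair, with Lyz2, a myeloid lysozyme, at 9.32 and 7.03 on the fresh arrays. Cybb, which myeloid cells also express, measured 10.84 and 11.00 on the same arrays, and the part of myeloid cells in its fall was not tested. Of 11 B cell genes 2 fell and 1 rose, and 6 fell without fresh replicate 2. Their summed level was 10.88 and 10.51 fresh and 10.55 and 10.28 activated, and Cd79a measured 6.32 and 4.79 fresh and 4.69 and 3.84 activated. Ebf1, a B cell lineage factor, rose from 6.01 and 5.11 to 9.43 and 9.18 (13.4-fold, adjusted p = 0.000894) while Fcmr fell 2.60-fold. Ms4a1, which encodes CD20, fell 1.95-fold from 5.87 and 4.53 to 4.25 and 4.22, and passed only with all arrays or without fresh replicate 2 (adjusted p = 0.208, 0.146 and 0.158 without fresh replicate 1, activated replicate 1 and activated replicate 2). Its log2 difference was -0.30 without fresh replicate 1 and -1.63 without fresh replicate 2. The B cell list as a whole did not rise with Ebf1. With all arrays 33.3% of the T cell identity list and 27.3% of the B cell list passed, beside 20.2% of all genes. Of the myeloid and dendritic list 4.35% passed, below that share.

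The summed level of 12 CD8 T and NK cell genes was 10.30 and 10.25 fresh and 9.78 and 9.77 activated. Cd8a went from 7.78 and 8.05 to 6.43 and 6.40 (2.83-fold lower, adjusted p = 9.62e-06), and Klre1 fell by 0.27 on the log2 scale, without a call when any 1 array was left out (adjusted p between 0.0907 and 0.165). The 13 genes of activated conventional CD4 cells, which the co-cultured naive cells could bring, summed to 12.35 and 12.54 fresh and 11.75 and 12.20 activated. Cd40lg fell 2.27-fold and Il21 rose, and Il2 stayed at 5.67 and 5.71 fresh and 5.54 and 5.63 activated. Without activated replicate 2 or either fresh replicate only Cd40lg passed. The 7 erythroid and platelet genes summed to 8.90 and 8.62 fresh and 8.70 and 8.52 activated, with 1 fall, Car2 (2.05-fold). With all arrays 16.7% of the CD8 T and NK cell list and 15.4% of the conventional CD4 list passed, beside 20.2% of all genes. The share of the erythroid and platelet list also lay below that of all genes.

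The change in CD103 single-positive cells was then compared with that in double-positive cells, which also carry ICOS. It differed for 153 genes (0.767% of 19938), of which 126 (0.632%) had the higher and 27 (0.135%) the lower change in the single-positive cells. Of the 126 genes 26 were among the 68 measured genes of the 3 cell cycle lists, 109 rose in CD103 single-positive cells, and 125 had a higher fresh level in double-positive than in CD103 single-positive cells, an order that the choice of genes favours because fresh levels enter the contrast. In the mitosis list 19 of 24 genes differed, and 10 to 17 did with 1 of the 8 arrays left out: 10 without activated or without fresh double-positive replicate 2 and 12 without fresh CD103 single-positive replicate 2. Over the 3 cell cycle lists together 26 differed, as against 14 without activated or without fresh double-positive replicate 2, 15 without fresh, 16 without activated CD103 single-positive replicate 2, 17 without activated CD103 single-positive replicate 1 and 18 to 23 without 1 of the other arrays. Leaving out 1 array gave 78 or 77 genes without fresh CD103 single-positive replicate 1 or 2, 83 or 86 without activated replicate 1 or 2, 106 or 61 without fresh double-positive replicate 1 or 2, and 101 or 63 without activated double-positive replicate 1 or 2. The difference was therefore seen in fewer genes, and not in none, with any 1 of these arrays absent.

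Mki67 shows the shape of the difference. Double-positive cells measured 10.28 and 10.51 fresh and 11.51 and 11.50 activated, against 7.29 and 6.81 fresh and 11.57 and 11.61 activated in CD103 single-positive cells, and the changes differed by 3.43 (SE 0.30, adjusted p = 0.000699). The activated levels of the 2 subsets were close, and their fresh levels were apart. Ccna2 stood at 9.36 and 9.52 in fresh double-positive cells and reached 11.51 and 11.40, and its changes differed by 3.55 (SE 0.23, adjusted p = 0.000224). Bub1 stood at 7.25 and 7.67 and reached 10.20 and 9.81 (difference of changes 3.20, adjusted p = 0.00443). The next differences in this direction were those of Kif11 (3.13), Ccnb2 (3.00), Knl1 (2.85), Ncapg (2.80) and Rrm2 (2.76). All 8 passed without any 1 of the 8 arrays of the comparison.

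In the other direction Lum, which encodes the matrix proteoglycan lumican, measured 4.03 and 4.13 fresh and 4.19 and 4.57 activated in CD103 single-positive cells, and 3.99 and 4.01 fresh and 8.38 and 7.96 activated in double-positive cells. Its changes differed by -3.86 (SE 0.44, adjusted p = 0.00281), which held without any 1 array. Lum thus rose in the double-positive cells from a level near the bottom of the scale. Dtx4 changed by -2.18 in CD103 single-positive and by -0.23 in double-positive cells (difference -1.95, adjusted p = 0.00567), and Gsta4, Khdc1a, Smpdl3a, Evl, Cxcr5 and Gucy1a1 also had the lower change, by -2.05, -1.96, -2.12, -2.48, -2.01 and -1.98. Of these, Gsta4 was lost without activated double-positive replicate 2 and Khdc1a without fresh double-positive replicate 2. Evl, Cxcr5 and Gucy1a1 were lost without any 1 of the 8 arrays and Smpdl3a without 7 of them (highest adjusted p 0.143, 0.159, 0.104 and 0.104). Cd8a and Noxa1 had changes lower by -1.19 and -1.09, from fresh levels in CD103 single-positive cells above those of both other subsets; Noxa1 did not pass in 4 of the 8 fits with 1 array fewer (highest adjusted p 0.0691). Cd8a and Noxa1 were named because earlier results of these data set them highest in fresh CD103 single-positive cells. Fresh levels enter the contrast, so this choice favours a lower change in those cells. Nox1 measured 7.61 and 7.82 fresh and 5.27 and 5.39 activated in double-positive cells, so that its changes differed by 2.02 (adjusted p = 0.000372).

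**Figure D4:**
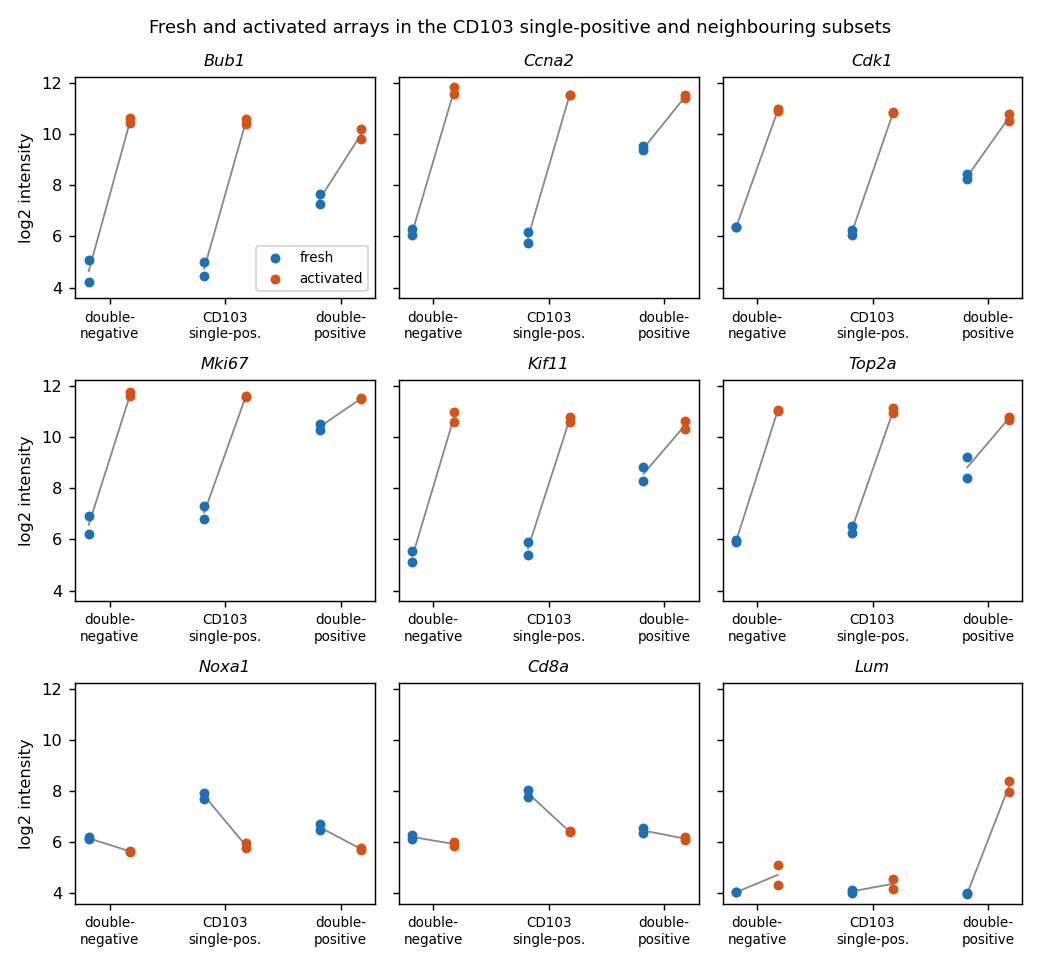
Log2 intensity (vertical axes) of 9 genes on the fresh (blue) and activated (orange) arrays of double-negative, CD103 single-positive and double-positive Treg, 2 arrays per group, with lines joining group means. The 6 cell cycle genes start low in the first 2 subsets and higher in double-positive cells, Noxa1 and Cd8a are highest in fresh CD103 single-positive cells, and Lum rises in double-positive cells.

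Against double-negative cells, which lack both markers, 0 genes passed in limma (0% of 19938), while 631 had an unadjusted p below 0.05. A p that misses the threshold does not show that the subsets responded alike. The lowest adjusted p belonged to Noxa1, whose change was lower in CD103 single-positive cells by -1.43 (SE 0.17, adjusted p = 0.069). Noxa1 passed without activated ICOS single-positive replicate 2 (adjusted p = 0.0388), after repeated quantile normalization (0.0159) and with limma-trend (0.0494). Noxa1 did not pass with a replicate block, with only the arrays compared or with each array centred on its median. Nor did it pass with the filter on dim genes or with the most variable probe set per gene. It measured 6.20 and 6.11 fresh and 5.62 and 5.66 activated in double-negative cells. Cd8a followed with -1.23 (SE 0.17, adjusted p = 0.126) and Ipcef1 with -1.84 (SE 0.25, adjusted p = 0.126). Noxa1 and Cd8a were named for their high fresh levels in CD103 single-positive cells, which enter this contrast too. Cybb fell by 4.78 in CD103 single-positive and by 2.62 in double-negative cells (difference -2.17, SE 0.34, adjusted p = 0.162). The mitosis genes changed by a median of 3.97 in CD103 single-positive and 4.16 in double-negative cells, and Mki67 measured 6.91 and 6.22 fresh and 11.74 and 11.60 activated in the latter. The number of genes that passed was 7 without activated double-negative replicate 2, Cybb among them, and 1 without activated double-negative replicate 1 or without fresh CD103 single-positive replicate 1.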

How the data were processed

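RNA from sorted Treg subsets was measured on 16 Affymetrix arrays, 2 in each of 8 groups, from 270 ng of total RNA each. The deposited values are log2 intensities made by the authors with RMA and the affy package, per the submitters' processing notes, which give no version or setting. By default RMA quantile-normalizes arrays, which can hide a shift of most genes in one direction. Of 35556 probe sets, 21789 have 1 gene symbol in the annotation table, 1621 several and 12146 none; the brightest 1-symbol probe set stood for each gene (999 genes had several), leaving 19938. By gene identifier, 21698 probe sets matched RefSeq GRCm38.p6, and 0 symbols changed. No genome build is named for the array annotation, so positions of probe sets are left out and the only positions given are those of the RefSeq promoter windows.

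Values were analysed without further normalization in limma 3.58.1 (R 4.3.3), with 8 group means, 8 residual degrees of freedom, a prior of 2.9 and Benjamini-Hochberg adjustment over all genes. The p-values rest on how far the 2 biological replicates of each group lie apart. Differences of changes were contrasts in the same fit; within each, the 2 changes share no arrays, but both contrasts use the same 4 CD103 single-positive arrays. The 34 gene lists hold 614 genes, of which 568 were measured; they are described by counts and medians, without tests of lists. The genes named are the 15 largest differences in each direction that passed and kept their sign in both replicates. For differences of changes they are the 8 largest that passed in each direction, without a check of replicate signs. Both leave out predicted, small RNA, histone and antigen receptor genes. Up to 6 passing members and the defining members of each list were added. Cd8a and the NADPH oxidase genes were always named, because earlier results set them highest in fresh CD103 single-positive cells. The gene lists, motifs and comparisons were chosen with earlier results of these data known. Arrays carry no counting depth; their number limits the precision. Replicate numbers were not used as a block in the main fit. Alternatives were the arrays in the fit, left-out arrays, the block, scaling, a filter on dim genes, the probe set rule, limma-trend and a 2-fold threshold.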

Additional observations from a re-analysis of the deposited data

Results flagged for a closer look

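Results here are differences between the changes of 2 subsets, tested as a difference of changes in limma with adjustment over all genes; no explanation for them was tested. The change on activation in CD103 single-positive Treg differed from that in double-positive Treg for 153 genes, and 31 named genes are among them.

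The change was higher in CD103 single-positive cells, on the log2 scale, for the mitosis genes Ccna2 (3.55), Mki67 (3.43), Bub1 (3.20), Kif11 (3.13), Ccnb2 (3.00), Knl1 (2.85), Ncapg (2.80), Top2a (2.72) and Cdk1 (2.42). It was also higher for the replication genes Rrm2 (2.76), Uhrf1 (2.23) and Rrm1 (1.39) and for the entry genes E2f8 (2.72), Ccne2 (2.60), Ccne1 (1.44) and E2f7 (1.12). All of these had a higher fresh level in double-positive than in CD103 single-positive cells, an order that their choice by this contrast favours, since fresh levels enter it. Outside the cell cycle the change was higher for the stress kinase gene Map3k20 (2.16), Nox1 (2.02), which fell further in double-positive cells, the galectin-1 gene Lgals1 (1.58) and the serine synthesis gene Psat1 (1.36). With 1 of the 8 arrays left out, Rrm1 passed in 1 fit, Psat1 in 2 and Ccne2 in 5, while Ccne1, E2f7 and Map3k20 passed in 0; their highest adjusted p values in limma were 0.172, 0.145, 0.057, 0.155, 0.193 and 0.0857.

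The change was lower in CD103 single-positive cells for Lum (-3.86), Evl (-2.48), Smpdl3a (-2.12), Gsta4 (-2.05), Cxcr5 (-2.01), Gucy1a1 (-1.98), Khdc1a (-1.96), Dtx4 (-1.95), Ipcef1 (-1.66), Cd8a (-1.19) and Noxa1 (-1.09). Lum rose in double-positive cells, and the other 10 fell in CD103 single-positive cells with a smaller difference in double-positive cells. Cd8a and Noxa1 were named for high fresh levels in CD103 single-positive cells, a choice that favours a lower change there. Ipcef1 passed in 3 of the 8 fits with 1 array fewer (highest adjusted p 0.0578).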

How the results depend on the processing

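Calls for activated against fresh cells numbered 2832 to 3012 with 1 array fewer, where the lone array of a group is assumed to vary like the other groups, and 2617 to 2775 of the 4036 genes were called again. A test against a 2-fold difference left 467 and a 2-fold minimum 1889. Of 190 named genes that passed, 148 to 156 passed with 1 array fewer. Against double-negative cells, 5 genes passed without activated ICOS single-positive replicate 2, 1 after repeated quantile normalization, 1 with limma-trend and 0 to 7 with 1 array fewer. Against double-positive cells, 224 passed without activated ICOS single-positive replicate 2 (within 1.5 times of 153) and 61 to 106 with 1 array fewer. The replicate numbers were not taken to pair the samples: the labels tie them to no animal or experiment, and there are 2 pairs. Same-numbered fresh and activated CD103 single-positive arrays deviated together with a correlation of 0.397; over all 28 pairs of groups the range was -0.016 to 0.752, with 27 above 0.1, and the 6 pairs of fresh groups lay at 0.499 to 0.752. With a replicate block 5440 genes passed, all 4036 among them, 277 differed from double-positive cells and 0 from double-negative cells; in the survival list 2 rose and 5 fell.

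With 1 array fewer, the median ranged from -0.68 to 0.04 for immediate early genes and from -0.24 to 0.09 for erythroid genes, and changed sign for granule genes (-0.03 without activated replicate 2) and myeloid genes (0.03 without fresh replicate 1); the other 30 list medians kept their sign in every alternative run. Those of other lists that moved beyond the replicate spread ranged, with 1 array fewer, from 1.18 to 1.45 for effector Treg, -1.29 to -0.83 for naive and central, -0.71 to -0.18 for homing, 0.74 to 1.18 for cell cycle entry, -0.69 to -0.32 for costimulation, -0.98 to -0.51 for TGF-beta, 0.56 to 0.69 for transporters, 0.89 to 1.07 for aminoacyl-tRNA synthetase, 0.42 to 0.65 for respiratory chain, -0.27 to -0.18 for NADPH oxidase, -1.44 to -0.10 for B cell, -0.36 to -0.03 for conventional CD4 and -0.36 to -0.21 for T cell identity genes. Repeated quantile normalization gave -0.65 and centring -0.66 for costimulation. The filter on dim genes gave 0.50 for granule, -1.16 for follicular, -0.74 for myeloid and -0.28 for NADPH oxidase genes, for which centring also gave -0.28. The most variable probe set gave 0.82 for transporters and -0.29 for survival genes. The cause of these shifts was not tested.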
